A study of Mus musculus with 7 samples.

Results

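A set of 8 genes of Schwann cells and other glia was followed in damaged mouse utricles with and without *Fos* overexpression. They were taken by name, and all 8 were found among the 32285 genes counted in each library and all 8 passed the filter on low counts, which left 17155 genes. They comprise 4 myelin genes (*Mbp*, *Pmp22*, *Mal* and *Egr2*), 2 neural crest glial regulators (*Sox10* and *Foxd3*) and 2 further glial markers (*Cdh19* and *S100b*). The question was how the myelin genes stood against the crest regulators when *Fos* was raised.

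The utricle is a vestibular organ whose hair cells are lost after gentamicin, an aminoglycoside toxic to them. RNA was sequenced from wild-type utricles (C57BL/6J in the methods for explants) taken at postnatal day 2, cultured, exposed to 2 mM gentamicin for 24 h and collected on day 5 after injury. The Gent+Fos OE group (4 libraries) also received AAV-PHP.eB carrying mouse *Fos* under the CMV promoter for 48 h, and the Gent group (3 libraries) is labelled with gentamicin alone. Per the labels a library is a pool of 12 utricles, so errors here are a spread between pools, and CMV is not restricted to 1 cell type. Whether the Gent utricles received a control virus is not settled. The labels name none, while the study's captions call the controls of this comparison gentamicin controls in some places and a control AAV group in another. If they received none, an effect of the virus itself cannot be told apart from that of *Fos*.

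Schwann cells arise from the neural crest and wrap peripheral axons, and in the ear they accompany the vestibular nerve fibres that enter the sensory epithelium. SOX10 is kept throughout the lineage, FOXD3 marks its early crest and precursor stages, and EGR2 turns on the genes of compact myelin. Several of the 8 genes are also active outside glia: *Sox10* in otic epithelium and melanocytes, *Pmp22* and *Mal* in epithelia, and the *Mbp* locus, through its golli transcripts, in cells that make no myelin. In whole utricles, fewer cells of a type and less RNA per cell cannot be told apart.

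Totals ran from 27879889 to 34335214 counts per library, and replicates of a group differed by 17.8 to 147 times the chi-square expected from sampling of reads. *Fos* itself was at 149 to 167 CPM (counts scaled to library size, TMM-normalized) in Gent+Fos OE against 34.6 to 40.6 in the other group, a log2 fold change of 2.01 ± 0.13 (SE, edgeR adjusted p = 0.000142). A pair of Gent libraries stood apart. Gent replicate 1 held 46.9 CPM of *Gfap*, against 5.26 or less elsewhere, and 4.48 CPM of *Olig2*, against 0.143 or less. It also held 20.0 CPM of *Ncan* and 7.46 of *Bcan*, against 0.606 and 0.463 or less in the others, and these 2 genes, chosen after their values were seen, encode matrix proteoglycans of the brain. Gent replicate 2 had lower values in longer genes (Spearman's rho of -0.50 across genes between exon length and the value relative to the gene's mean, against -0.22 to 0.33 elsewhere).

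The name of the group was set beside defining markers, of which *Mag*, *Pmp2*, *Mobp* and *Opalin* were picked after their values were seen. *Mag*, an adhesion protein of myelinating glia, was at 0.827 to 2.0 CPM with *Fos* overexpression and 1.85 to 2.64 without. *Pmp2* was at 0.127 CPM or less in 6 libraries and at 0.897 in Gent replicate 2. *Mobp* and *Opalin*, markers of oligodendrocytes, had 0 counts in every library, which allows up to 0.107 CPM each (3 counts in the shallowest library, counting error only). Per kilobase of exon, mean levels were 0.440 CPM for *Mag* and 70.5 for *Sox10*. On the same scale, other genes of the myelin sheath list were higher than *Mag*, with *Prx*, *Gldn*, *Ugt8a*, *Drp2* and *Ncmap* at 1.23, 2.99, 2.68, 1.16 and 1.06, *Cnp* at 14.7, *Cadm4* at 93.1 and *Cd9* at 137, whereas *Fa2h*, *Pmp2*, *Cldn19* and *Gjb1* were at 0.193 or less. These levels differ widely, and the 8 genes are described below as genes and not as a measure of myelinating Schwann cells.

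**Figure D1:**
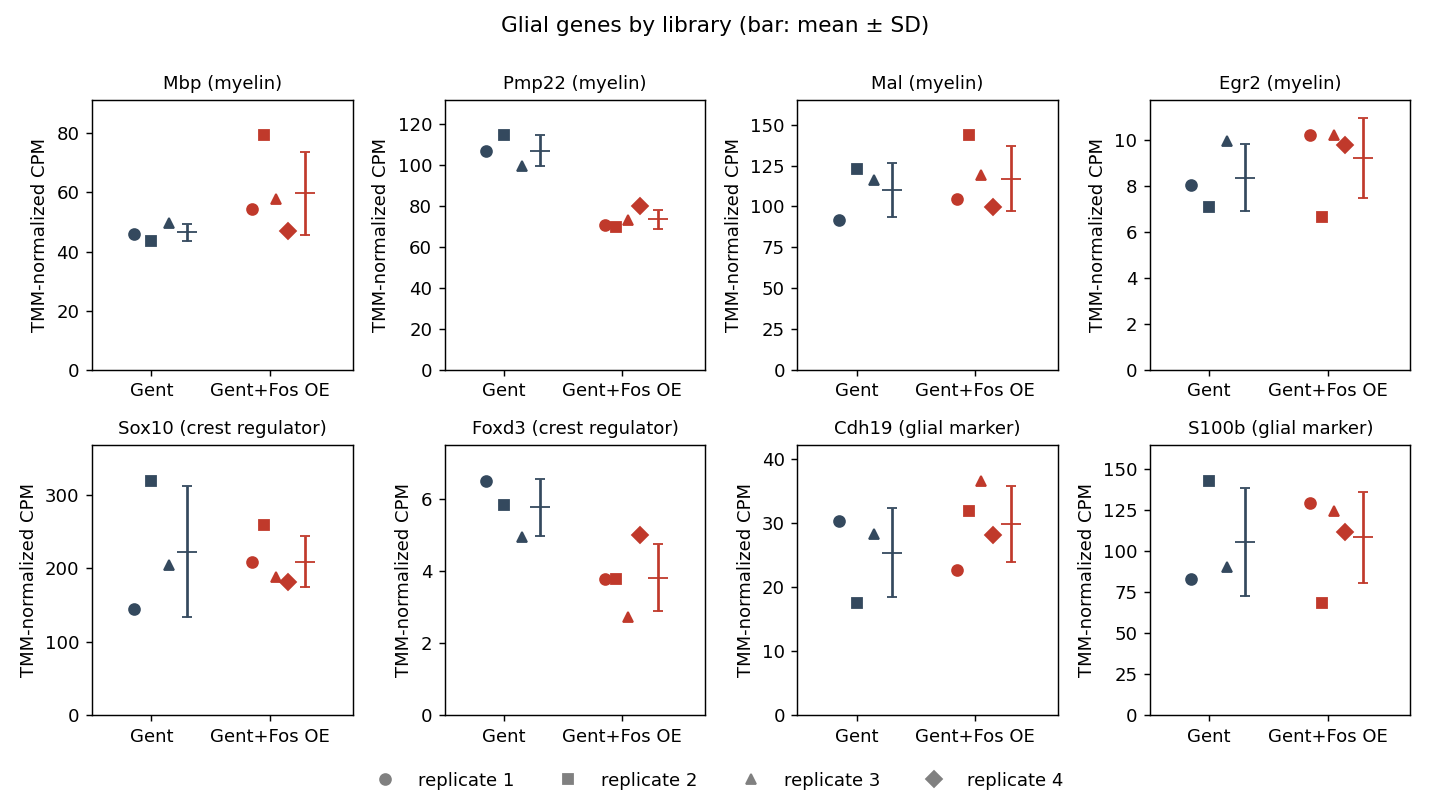
CPM (TMM-normalized, y axis from 0) of the 8 glial genes in each Gent and Gent+Fos OE library, with symbols for the replicate number and bars for mean ± SD. *Pmp22* has all 4 Gent+Fos OE libraries (69.6 to 80.3) below all 3 Gent libraries (99.6 to 115), whereas the groups overlap for the other 7 genes.

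By edgeR's quasi-likelihood test, 0 of the 8 genes passed the limits of the study (a log2 fold change beyond 0.25 in either direction with an adjusted p below 0.01), where 0.134% of the 17155 tested genes rose and 0.28% fell. At an unadjusted p under 0.05, 0 of the 8 were higher and 2 were lower in Gent+Fos OE (*Pmp22* and *Foxd3*), against 11.1% of tested genes higher and 13.4% lower. DESeq2 with the same limits called 1 of the 8, *Pmp22*, as lower, and it called 1.73% of 18927 genes lower and 1.44% higher. *Pmp22* was also the only 1 of the 8 whose groups did not overlap. Of all tested genes, 12.2% had every Gent+Fos OE library below every Gent library, and 11.3% had every one above.

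*Pmp22* (ENSMUSG00000018217, mm10 chr11:63128982-63159547, plus strand) encodes a tetraspan protein of compact peripheral myelin that epithelial cells and fibroblasts also make. Its level was 70.9, 69.6, 73.5 and 80.3 CPM in Gent+Fos OE replicates 1 to 4 and 107, 115 and 99.6 CPM in Gent replicates 1 to 3. The highest Gent+Fos OE library lay below the lowest Gent library. The log2 fold change was -0.54 ± 0.12 (SE), with an edgeR adjusted p of 0.0457, which misses the limit of 0.01, and a DESeq2 adjusted p of 0.000753. An exact two-sided permutation test gave p = 0.0286, the smallest that 4 against 3 libraries allow. Over 15 alternative fits the log2 fold change ran from -0.59 to -0.43 and the adjusted p from 0.000753 to 0.162. Without Gent replicate 1 it was -0.54 and without Gent replicate 2 -0.49.

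RefSeq lists 4 transcription starts for *Pmp22*. The 250 bases before each start (GRCm38.p6, the assembly called mm10, plus strand) are shown for the first 3, since this is the gene with the lowest p and c-Fos binds DNA as part of AP-1. Capitals would mark TGANTCA, the AP-1 motif, or TGACGTCA, the CRE motif of the related CREB and ATF factors, on either strand, and none of the 4 windows holds either. The CRE motif was added after the sequences had been seen.
Pmp22 start 1, chr11:63128732-63128981: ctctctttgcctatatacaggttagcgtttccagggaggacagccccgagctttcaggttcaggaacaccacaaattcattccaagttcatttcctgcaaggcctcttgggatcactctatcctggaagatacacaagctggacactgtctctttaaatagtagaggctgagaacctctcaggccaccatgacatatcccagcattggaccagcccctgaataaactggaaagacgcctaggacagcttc
Pmp22 start 2, chr11:63131207-63131456: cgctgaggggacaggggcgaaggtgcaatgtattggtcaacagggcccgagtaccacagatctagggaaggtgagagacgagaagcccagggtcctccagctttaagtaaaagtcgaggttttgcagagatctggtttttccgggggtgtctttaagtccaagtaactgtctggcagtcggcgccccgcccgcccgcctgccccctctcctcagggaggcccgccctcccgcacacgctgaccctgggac
Pmp22 start 3, chr11:63132319-63132568: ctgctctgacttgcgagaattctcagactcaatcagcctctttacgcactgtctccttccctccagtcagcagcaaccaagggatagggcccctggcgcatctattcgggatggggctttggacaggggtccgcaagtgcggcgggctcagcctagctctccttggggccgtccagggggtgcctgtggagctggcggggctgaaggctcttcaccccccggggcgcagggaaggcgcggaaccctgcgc
Among 32851 RefSeq windows of the same length, 6.749% hold TGANTCA and 1.546% hold TGACGTCA. The absence of these letters says nothing of binding by the factor. Windows were found for 5 of the 8 genes (*Pmp22*, *Mal*, *Egr2*, *Foxd3* and *S100b*), and TGANTCA is in none of them.

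*Mbp* (ENSMUSG00000041607, mm10 chr18:82475146-82585637, plus strand) encodes myelin basic protein, which holds the cytoplasmic faces of the myelin membrane together. It was at 54.5, 79.4, 57.8 and 46.8 CPM in Gent+Fos OE and at 46.1, 43.7 and 49.6 CPM in Gent. Gent+Fos OE replicates 1 to 3 lay above all Gent libraries, with replicate 2 highest, and replicate 4 lay within the Gent range. The log2 fold change of 0.36 ± 0.17 (SE) did not pass the test (edgeR adjusted p = 0.225, exact permutation p = 0.114). It was 0.19 without Gent+Fos OE replicate 2 and 0.13 with a correction for gene length.

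*Mal* (ENSMUSG00000027375, mm10 chr2:127633226-127656695, minus strand) encodes a proteolipid that carries lipids to myelin and to the apical membrane of epithelia. Its values were 105, 144, 120 and 99.4 CPM in Gent+Fos OE and 91.6, 123 and 116 CPM in Gent. The groups overlapped throughout, and the log2 fold change was 0.09 ± 0.16 (SE, edgeR adjusted p = 0.761), with its sign turning to -0.03 without Gent+Fos OE replicate 2 and without Gent replicate 1.

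*Egr2* (ENSMUSG00000037868, mm10 chr10:67535475-67542188, plus strand) encodes the zinc finger factor that drives myelin genes and is also an immediate early gene. It was at 10.2, 6.64, 10.2 and 9.80 CPM in Gent+Fos OE and at 8.04, 7.08 and 9.97 CPM in Gent. Gent+Fos OE replicate 2 was the lowest of all 7 libraries while the other 3 spanned 9.80 to 10.2. The log2 fold change was 0.14 ± 0.20 (SE, edgeR adjusted p = 0.689), with 0.03 as the lowest value when Gent replicate 2 was left out and 0.29 as the highest when Gent replicate 3 was.

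*Sox10* (ENSMUSG00000033006, mm10 chr15:79154908-79165240, minus strand), the lineage regulator, was at 208, 259, 189 and 181 CPM in Gent+Fos OE and at 145, 320 and 204 CPM in Gent. Gent replicates 1 and 2 were the lowest and the highest of all 7 libraries, so the Gent group enclosed the other. The log2 fold change was -0.09 ± 0.24 (SE, edgeR adjusted p = 0.834). It turned with the library left out, to -0.32 without Gent replicate 1 and to 0.26 without Gent replicate 2, so no direction can be given.

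*Foxd3* (ENSMUSG00000067261, mm10 chr4:99656299-99658622, plus strand) encodes a forkhead repressor of crest cells and glial precursors. It was at 3.78, 3.77, 2.72 and 4.99 CPM in Gent+Fos OE and 6.50, 5.83 and 4.94 CPM in Gent, on 86 to 190 counts. Gent+Fos OE replicate 4 lay just above Gent replicate 3, which was the only overlap. The log2 fold change was -0.59 ± 0.23 (SE), with p = 0.0279 unadjusted and 0.167 adjusted in edgeR and an exact permutation p of 0.0857. All 15 alternative fits gave a negative value, from -0.76 to -0.47, and adjusted p from 0.127 to 0.317.

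The single *Foxd3* window is shown because it alone, of the windows of the 5 genes, holds TGACGTCA (capitals), starting 233 bases before the start (GRCm38.p6, plus strand). A match is a description of the letters and not a site shown to be bound.
Foxd3 start 1, chr4:99656049-99656298: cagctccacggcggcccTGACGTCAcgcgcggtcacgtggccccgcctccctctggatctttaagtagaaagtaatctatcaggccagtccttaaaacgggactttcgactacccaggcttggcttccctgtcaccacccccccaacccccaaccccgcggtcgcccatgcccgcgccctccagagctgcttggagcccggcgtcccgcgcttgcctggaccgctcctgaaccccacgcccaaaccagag

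The 2 glial markers did not pass the test either. *Cdh19* (ENSMUSG00000047216, mm10 chr1:110888326-110977584, minus strand), a cadherin of Schwann cell precursors, was at 22.8, 31.9, 36.7 and 28.2 CPM in Gent+Fos OE and 30.4, 17.5 and 28.4 CPM in Gent. Gent replicate 2 was the lowest library, the groups overlapped, and the log2 fold change was 0.23 ± 0.21 (SE, edgeR adjusted p = 0.512). Its value was 0.02 without Gent replicate 2, 0.12 without Gent+Fos OE replicate 3 and 0.38 without Gent replicate 1. *S100b* (ENSMUSG00000033208, mm10 chr10:76253853-76261159, plus strand), a calcium-binding protein of glia and other cells, was at 129, 68.5, 124 and 112 CPM in Gent+Fos OE and at 83.1, 143 and 90.2 CPM in Gent. Both ends of its range were single libraries, Gent+Fos OE replicate 2 and Gent replicate 2. Its log2 fold change was 0.04 ± 0.24 (SE, edgeR adjusted p = 0.932) and ran from -0.11 to 0.32 as single libraries were left out.

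**Figure D2:**
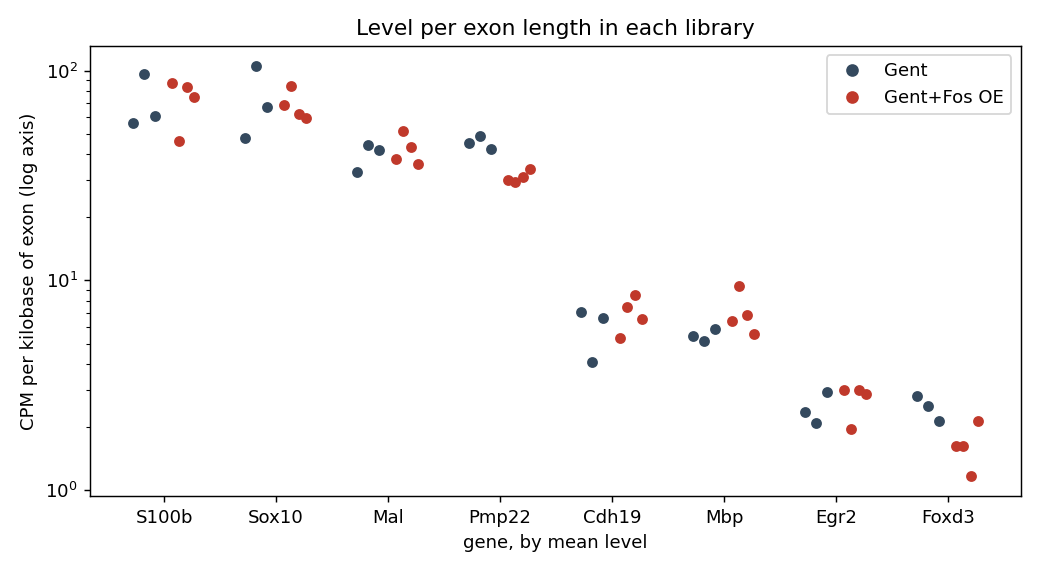
CPM per kilobase of exon (log axis) of the 8 genes in each Gent and Gent+Fos OE library, ordered by their mean over the 7 libraries. *S100b* (72.2) and *Sox10* (70.5) lead, and *Egr2* (2.61) and *Foxd3* (2.0) are lowest.

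Levels were compared between genes per exon length. Mean CPM per kilobase over the 7 libraries was 72.2 for *S100b*, 70.5 for *Sox10*, 41.0 for *Mal*, 37.4 for *Pmp22*, 6.53 for *Cdh19*, 6.38 for *Mbp*, 2.61 for *Egr2* and 2.0 for *Foxd3*. Among neighbours in that order, the ranges over libraries were apart only between *Pmp22* and *Cdh19* and between *Mbp* and *Egr2*. *Sox10* exceeded *Mal* in 7 of 7 libraries although their ranges overlapped, and the other neighbours changed places between libraries. The genes also differed in spread: the highest library held 2.39 times the lowest for *Foxd3* and 2.2 times for *Sox10*, but 1.65 times for *Pmp22* and 1.54 times for *Egr2*.

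Setting myelin genes against crest regulators gave no separation of the groups. The median log2 fold change was 0.11 over the 4 myelin genes and -0.34 over *Sox10* and *Foxd3*, beside -0.00075 over all tested genes. Leaving out Gent replicate 1 or 3 put the myelin median at 0.04 or 0.21, and leaving out Gent replicate 2 put that of *Sox10* and *Foxd3* at -0.17. The myelin median hides opposite members, since *Pmp22* was at -0.54 and *Mbp* at 0.36 (0.13 to 0.45 over the alternative fits). The crest median lies between *Foxd3*, at -0.59 on 86 to 190 counts, and *Sox10*, at -0.09, for which no direction can be given. Per library, the myelin median minus the crest median (log2 CPM, each gene relative to its mean) was 0.09, -0.01, 0.53 and -0.11 in Gent+Fos OE and -0.16, -0.57 and 0.06 in Gent. Gent+Fos OE replicate 3 and Gent replicate 2 formed the 2 ends, and the rest overlapped. These values are a description of 4 and 2 genes, and no test was made of them.

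**Figure D3:**
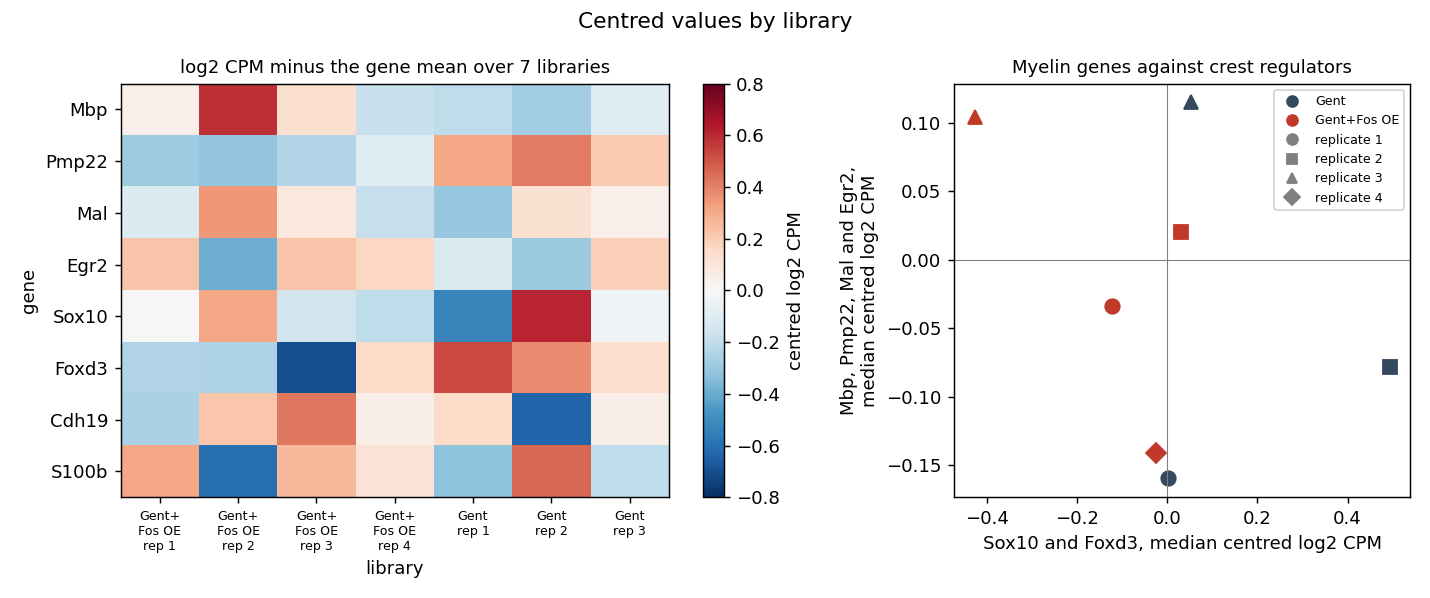
Left, log2 CPM of each of the 8 genes minus its mean over the 7 libraries (colour), by library. Right, the median of these values over *Mbp*, *Pmp22*, *Mal* and *Egr2* (y axis) against that over *Sox10* and *Foxd3* (x axis), 1 point per library; Gent+Fos OE replicate 3 lies farthest left (-0.43) and Gent replicate 2 farthest right (0.49).

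Ratios between members within a library were compared for all 28 pairs by exact permutation tests. The log2 ratio of *Mbp* to *Pmp22* was -0.38, 0.19, -0.35 and -0.78 in Gent+Fos OE and -1.21, -1.39 and -1.0 in Gent, so every Gent+Fos OE library was above every Gent library, by 0.88 on average (permutation p = 0.0571). *Pmp22* against *Mal* (-0.62, permutation p = 0.0571) and against *Cdh19* (-0.79, permutation p = 0.0286) were the other pairs whose groups did not overlap. All 3 include *Pmp22*. After Benjamini-Hochberg adjustment over the 28 pairs the lowest permutation p was 0.400, which says little in either direction, since the smallest p of a single pair is 0.0286 and the design could hardly bring an adjusted value under 0.05. No ratio of a myelin gene to *Sox10* or *Foxd3* separated the groups.

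**Figure D4:**
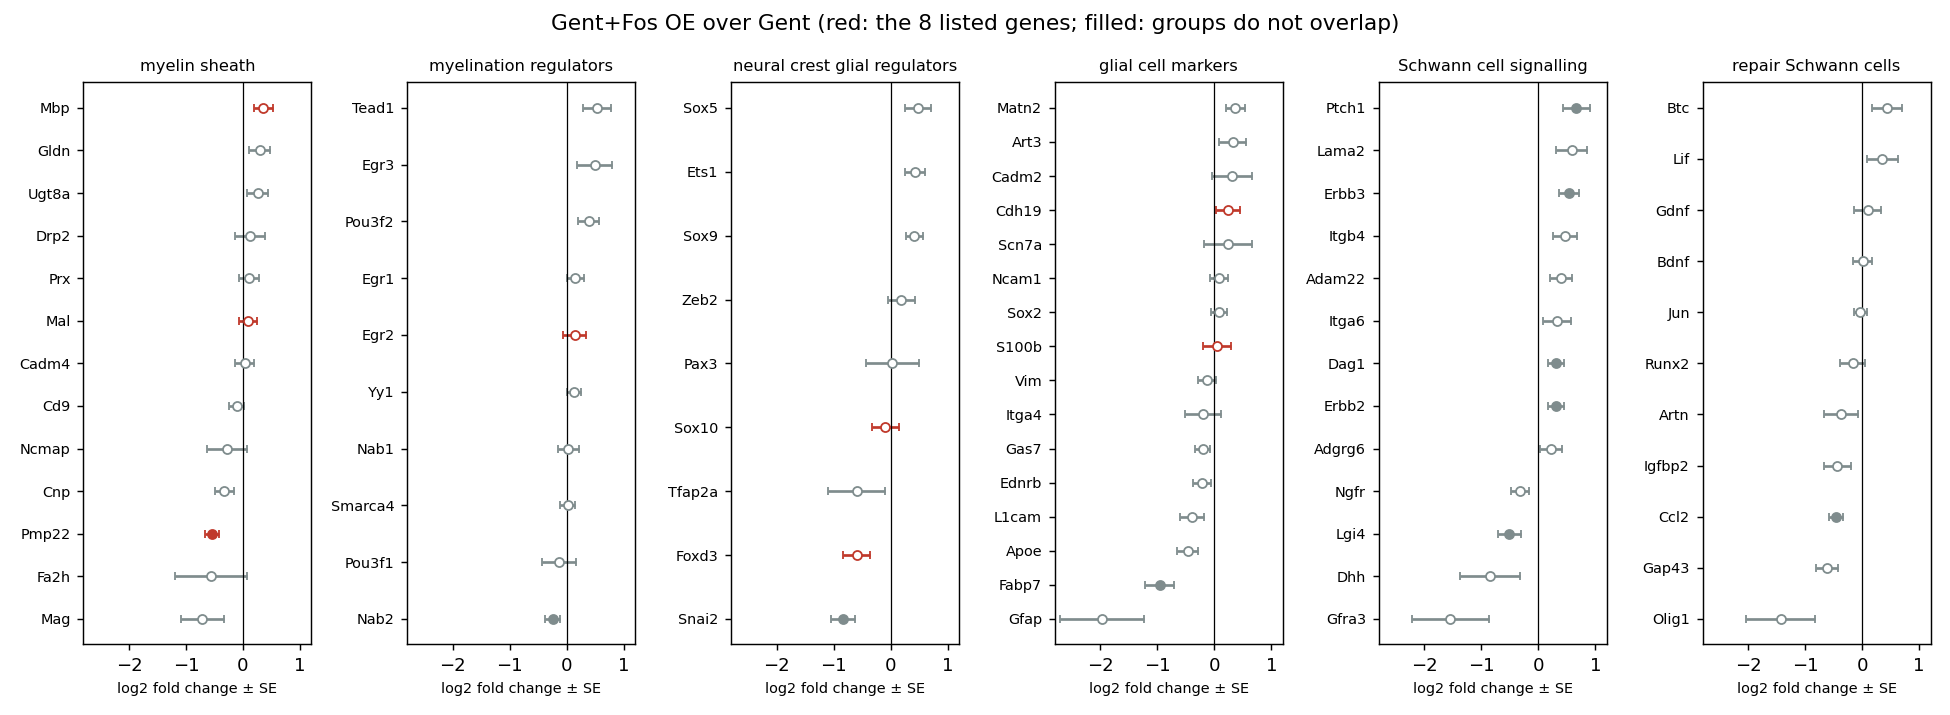
Log2 fold change of Gent+Fos OE over Gent with its SE (edgeR) for the tested genes of 6 glial gene lists; the 8 genes are in red and filled points are genes whose groups do not overlap. *Pmp22* (-0.54) is the only filled red point, and the *Gfap* point (-1.97) became 0.30 without Gent replicate 1.

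The wider glial lists held no gene that passed the edgeR limits. Of 16 myelin sheath genes, 13 were tested, with 7 higher and 6 lower and a median log2 fold change of 0.03. Some myelin genes are not reported here and are left out of these counts, so the median describes the remaining genes and not the whole group. At an unadjusted p under 0.05, 0 were higher and 1 was lower, *Pmp22*, beside 11.1% and 13.4% of all tested genes. The lower genes numbered 2 without Gent+Fos OE replicate 2 or 4 or Gent replicate 1, and 1 gene was higher without Gent+Fos OE replicate 4. The median had the other sign without those libraries (-0.05, -0.04 and -0.08). *Mag* was at -0.71 ± 0.38 (edgeR adjusted p = 0.261), with Gent+Fos OE replicates 1 and 4 within the Gent range. The levels per kilobase of *Cd9* (137) and *Cadm4* (93.1), an adhesion protein of Schwann cells, were the highest of this list, followed by *Mal*. The log2 fold changes of *Cd9* and *Cadm4* were -0.11 ± 0.13 and 0.03 ± 0.17. Their levels stood far above that of *Mag* and are not taken as a measure of Schwann cell myelin.

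Of 10 tested regulators of myelination, 8 were higher and 2 lower (median 0.13, and 0.03 without Gent replicate 2), beside 49.9% higher over all tested genes. Without Gent+Fos OE replicate 2 they were 6 and 4 (median 0.08). *Tead1*, a partner of YAP and TAZ, was the only one with an unadjusted p under 0.05, at 0.53 ± 0.24 (edgeR adjusted p = 0.204). Its lowest library was Gent replicate 2, at 85.5 CPM against 145 to 236 in the other 6, and its value was 0.26 without that library and 0.83 without Gent replicate 1. The number of higher genes at that p ran from 0 (without Gent+Fos OE replicate 1, 2 or 3 or Gent replicate 2) through 2 (without Gent+Fos OE replicate 4) to 3 (without Gent replicate 1). With all libraries, 11.1% of all tested genes were higher at that p. *Smarca4*, *Yy1* and *Tead1* were the highest per kilobase (24.7, 19.3 and 13.1).

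Among 9 tested crest regulators, 5 were higher and 4 lower (median 0.03), with 2 of each at an unadjusted p under 0.05. Over all tested genes, 11.1% were higher and 13.4% lower at that p, and 12.2% had every Gent+Fos OE library below every Gent library. *Snai2*, a zinc finger repressor of crest and mesenchymal cells, was at 7.46, 7.72, 5.60 and 6.84 CPM in Gent+Fos OE and 16.2, 11.3 and 9.42 CPM in Gent. Its groups did not overlap, and its log2 fold change was -0.83 ± 0.21 (SE, edgeR adjusted p = 0.0745), and -0.58 without Gent replicate 1. *Foxd3* was the other lower gene. *Sox9* (0.42 ± 0.15, edgeR adjusted p = 0.148) and *Ets1* (0.43 ± 0.17, edgeR adjusted p = 0.167) were the higher ones, and *Sox9* is also made by supporting cells of the utricle. *Ets1* was at 0.24 without Gent replicate 2. Without Gent replicate 1 the numbers were 4 higher and 1 lower, and without any other library 1 higher and 1 or 2 lower. *Sox10*, *Sox9* and *Ets1* had the highest levels per kilobase (70.5, 30.3 and 5.61). The median of this list moved to 0.40 without Gent replicate 1 and to 0.14 without Gent+Fos OE replicate 4, and it was negative without Gent replicate 2 (-0.10), Gent replicate 3 (-0.11) or Gent+Fos OE replicate 3 (-0.05).

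Of 16 tested glial cell markers, 8 were higher and 8 lower (median -0.04, from -0.12 without Gent+Fos OE replicate 2 to 0.05 without Gent replicate 1), with 1 higher and 3 lower at an unadjusted p under 0.05. Of all tested genes, 11.1% were higher and 13.4% lower at that p, and 12.2% had every Gent+Fos OE library below every Gent library. *Fabp7*, a fatty acid-binding protein of immature glia, was at 6.45, 4.96, 6.81 and 6.10 CPM in Gent+Fos OE and at 16.0, 12.5 and 7.05 CPM in Gent. Every Gent+Fos OE library was below every Gent library, narrowly so for Gent replicate 3, and the log2 fold change was -0.96 ± 0.25 (SE, edgeR adjusted p = 0.0831). It was -0.69 without Gent replicate 1, the library with the highest level. *Gfap*, the filament protein of astrocytes and nonmyelinating glia, was at -1.97 ± 0.73 with all libraries and at 0.30 without Gent replicate 1. *Apoe*, a lipid carrier, was lower (-0.47 ± 0.18, edgeR adjusted p = 0.165, -0.22 without Gent replicate 2) and *Matn2*, a matrix protein, higher (0.37 ± 0.16, edgeR adjusted p = 0.192). Leaving out single libraries gave 0 or 1 higher genes (0 without Gent+Fos OE replicate 1, 3 or 4 or Gent replicate 1 or 3) and 1 (without Gent+Fos OE replicate 1) to 4 lower genes. The highest levels per kilobase were those of *Apoe* (1019), *Vim* (282) and *S100b* (72.2).

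Schwann cell signalling had a median of 0.31 over 13 tested genes, with 9 higher and 4 lower. The lower ones were *Lgi4*, *Gfra3*, *Dhh* and *Ngfr*, so the median does not describe the list as a whole. *Dhh* was at -0.60 and *Ngfr* at -0.29 without Gent+Fos OE replicate 1, and at -1.14 and -0.36 without Gent+Fos OE replicate 4. At an unadjusted p under 0.05, 4 genes were higher (*Erbb3*, *Ptch1*, *Itgb4* and *Dag1*) and 2 were lower (*Lgi4* and *Gfra3*). *Erbb3*, the neuregulin receptor of Schwann cells, was at 94.6, 129, 98.5 and 80.0 CPM in Gent+Fos OE and 74.6, 59.8 and 73.6 CPM in Gent. All Gent+Fos OE libraries were above all Gent libraries, with a log2 fold change of 0.54 ± 0.17 (SE, edgeR adjusted p = 0.118). Its partner *Erbb2* was at 46.2 to 64.7 CPM against 44.9 to 45.5, at 0.31 ± 0.14 (edgeR adjusted p = 0.211). *Ptch1*, the hedgehog receptor (0.67 ± 0.24), *Itgb4*, a laminin receptor subunit (0.47 ± 0.21), and *Dag1*, dystroglycan (0.31 ± 0.13), had edgeR adjusted p of 0.146, 0.203 and 0.191. *Erbb3*, *Ptch1* and *Dag1* were each lowest in Gent replicate 2, and without that library *Ptch1* was at 0.38, *Dag1* at 0.19 and the median of the list at 0.19. *Itgb4* was at 0.27 without Gent+Fos OE replicate 2. In this list 4 genes had every Gent+Fos OE library above every Gent library, beside 11.3% of all tested genes, and 1 had every one below, beside 12.2%. The shares of all tested genes at an unadjusted p under 0.05 were 11.1% higher and 13.4% lower. The number of higher genes at an unadjusted p under 0.05 was 2 without Gent+Fos OE replicate 1 or 3 or Gent replicate 3 and reached 6 without Gent replicate 1, and that of lower genes ran from 0 (without Gent+Fos OE replicate 3) to 2. *Lgi4* (-0.51 ± 0.21) shares 44.9% of its exonic bases with another gene, so its count is uncertain, and *Gfra3* (-1.54 ± 0.68) became -0.72 without Gent replicate 2. *Dag1* (54.2), *Ngfr* (16.3) and *Erbb3* (14.5) led this list per kilobase.

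Of 11 tested genes of repair Schwann cells, the state taken after nerve injury, 4 were higher and 7 lower (median -0.17, and -0.11 without Gent+Fos OE replicate 4). Lower at an unadjusted p under 0.05 were *Ccl2*, *Gap43* and *Olig1*. Among all tested genes, 13.4% were lower at that p and 12.2% had every Gent+Fos OE library below every Gent library. *Ccl2*, a chemokine of many cell types, was at 159, 164, 173 and 165 CPM in Gent+Fos OE and 196, 246 and 238 CPM in Gent, with no overlap, at -0.46 ± 0.12 (SE, edgeR adjusted p = 0.0859). *Gap43*, a growth protein of axons and repair cells, was at -0.62 ± 0.19 (edgeR adjusted p = 0.116) and at -0.40 without Gent replicate 2. *Olig1* was at -1.43 ± 0.61 (edgeR adjusted p = 0.187) and at -0.87 without Gent replicate 1, and the median of the list without that library was 0.00051. *Jun*, the regulator of that state, was at 104 to 112 CPM with *Fos* overexpression and 101 to 117 without, a log2 fold change of -0.03 ± 0.11. *Igfbp2*, a secreted binding protein of insulin-like growth factors, *Ccl2* and *Jun* were highest per kilobase (998, 168 and 34.5).

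Markers of other cells were measured in the same libraries, and the edgeR limits were passed by 3 melanocyte genes and 1 supporting cell gene. Over all tested genes, 0.28% were lower and 0.134% higher past those limits. Melanocytes are also crest derivatives that carry *Sox10*, and of 11 tested melanocyte genes 10 were lower (median -1.33), 3 of them past the edgeR limits. *Dct*, a pigment enzyme, fell from 38.0, 58.1 and 49.1 CPM in Gent to 22.3, 15.3, 18.8 and 17.2 CPM in Gent+Fos OE, a log2 fold change of -1.40 ± 0.18 (edgeR adjusted p = 0.00404). *Tyrp1* (-1.87 ± 0.27, edgeR adjusted p = 0.00837) and *Trpm1* (-1.96 ± 0.28, edgeR adjusted p = 0.00725) fell as well. *Pmel* (-1.33 ± 0.21), *Tyr* (-1.26 ± 0.25), *Mlana* (-2.0 ± 0.38) and *Slc45a2* (-2.04 ± 0.42) were lower with edgeR adjusted p of 0.0125 to 0.0417, and *Mitf* and *Kit* were at -0.17 ± 0.18 and 0.21 ± 0.28. *Mitf* was at -0.03 without Gent replicate 1 and -0.35 without Gent replicate 2, and *Kit* at 0.49 and -0.14. The 3 calls were lost without any 1 Gent+Fos OE library or Gent replicate 3, where 0 genes passed, with log2 fold changes of -2.17 to -1.32. Without Gent replicate 1 the *Trpm1* call was lost (edgeR adjusted p = 0.0151), and without Gent replicate 2 that of *Tyrp1* (0.0132), while *Dct* and *Pmel* passed in both fits. The summed melanocyte level was 94.9 to 107 CPM with *Fos* overexpression and 159 to 175 without. Its part in the values of *Foxd3*, *Snai2* and *Sox10* was not tested.

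Of 13 tested neuronal genes, 12 were higher and 1 lower (median 0.22, 0 called), beside 49.9% higher over all tested genes, and 9 were higher and 5 lower (median 0.14) without Gent replicate 1. The neuronal list had summed levels of 308 to 370 CPM with *Fos* overexpression and 264 to 295 without. Higher at an unadjusted p under 0.05 were *Stmn2* (1.72 ± 0.68, and 2.94 without Gent replicate 2), *Scn9a* (0.84 ± 0.29), *Ntrk3* (0.46 ± 0.16) and *Nefm* (0.45 ± 0.19, and 0.29 without Gent replicate 1). This count of 4 was 2 without Gent+Fos OE replicate 2 or 3 or Gent replicate 3. Of all tested genes, 11.1% were higher and 13.4% lower at that p. The 1 lower neuronal gene was *Tubb3*, at -0.42 without Gent+Fos OE replicate 1 and -0.57 without Gent+Fos OE replicate 2 (edgeR unadjusted p = 0.0386). Lower genes at that p numbered 1 without Gent+Fos OE replicate 2, Gent replicate 1 or Gent replicate 3. *Ntrk2*, *Stmn3* and *Isl1* were highest per kilobase (7.46, 6.28 and 5.72). Of 12 supporting cell genes, 9 were higher and 3 lower (median 0.10), but 6 and 6 (median 0.0093) without Gent replicate 1 and 12 and 0 (median 0.21) without Gent replicate 3, and *Otog*, otogelin of the membranes over the hair cells, rose by 1.25 ± 0.18 (log2, edgeR adjusted p = 0.00851), a call kept among the fits with 1 library left out only without Gent replicate 2. *Jag1* (0.63 ± 0.19, and 0.41 without Gent replicate 2), *Tecta* (0.58 ± 0.20, and 0.38 without Gent+Fos OE replicate 2), *Sox9* and *Cyp26b1* (0.38 ± 0.17) had unadjusted p under 0.05. With *Otog* the count was 5, and it was 3 without Gent+Fos OE replicate 1. *Epcam*, *Gjb2* and *Gjb6* were highest per kilobase (334, 193 and 102). Of 11 mesenchymal genes, 5 were higher and 6 lower (median -0.18, 0 called), a median that was -0.00097 without Gent replicate 1, -0.05 without Gent+Fos OE replicate 2, -0.10 without Gent replicate 3 and -0.11 without Gent replicate 2, with sums of 8878 to 13969 CPM with *Fos* overexpression and 11664 to 14786 without. *Dcn* (-0.56 ± 0.20) and *Lum* (-0.70 ± 0.25) were lower at an unadjusted p under 0.05. Without Gent replicate 1 they were at -0.47 and -0.39. In that fit 0 mesenchymal genes were lower at that p and 1 was higher, *Pdgfra* (0.55). Without Gent+Fos OE replicate 2, 1 gene was higher at that p, *Col3a1* (0.38). *Coch*, *Otor* and *Col1a2* were highest per kilobase (928, 487 and 437). Of 7 central glial genes only *Aqp4* was tested (0.31 ± 0.19, with 0.14 without Gent replicate 2, 0.19 without Gent+Fos OE replicate 2 and 0.46 without Gent replicate 1), a gene that supporting cells also carry. What part these cells have in the glial values was not tested.

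For *Mbp* and *Sox10*, the genes whose log2 CPM, relative to their mean, was nearest over the 7 libraries were named. For *Mbp* they were *Gfra1*, *Kazn*, *Afap1l2*, *Endod1* and *Perm1*, with root mean square differences of 0.0495 to 0.0664 log2 units. For *Sox10* they were *Dalrd3*, *Trpv4*, *Rec8*, *Inha* and *Arrdc1*, at 0.0751 to 0.0951. None of the other 7 glial genes was among them.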

How the data were processed

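Libraries of total RNA from 12 pooled utricles each were grouped by their labels (4 Gent+Fos OE, 3 Gent). All 7 were used, although the study's methods give 3 replicates for each condition. The authors deposited whole-number read counts per gene, not normalized. The submitters' processing notes name Trim Galore 0.6.10, HISAT2 2.2.1, featureCounts 2.0.6, DESeq2 1.34.0 and mm10, whereas the study's methods name mm39; coordinates are those of the files. No strand setting is shown, so overlapping genes are uncertain, and the 8 genes share no exonic bases with others.

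In R 4.3.3, genes were kept by filterByExpr (17155), normalized by TMM and compared by edgeR 4.0.16 (quasi-likelihood F-test, Benjamini-Hochberg adjustment). DESeq2 1.42.0 and limma 3.58.1 served as alternatives. Exact permutation tests ran over 35 assignments of the libraries. The code was tested on simulated data. The 8 genes and 11 gene lists, of which 134 of 136 genes were matched, were chosen with earlier results of these data known. Named list genes are those called, those with an unadjusted p under 0.05 and the 3 highest per exon length, with the 5 genes nearest in profile to *Mbp* and *Sox10* (mean of at least 1 CPM). *Mag*, *Pmp2*, *Mobp*, *Opalin*, *Olig2*, *Erbb2*, *Ncan* and *Bcan* were chosen after their values were seen, as was naming the levels of the other myelin sheath genes. Figures used Python with matplotlib. Results of some listed genes are not reported here, and the lists were counted without them.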

Additional observations from a re-analysis of the deposited data

Results flagged for a closer look

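Among the 4 Gent+Fos OE libraries, 1 value each of *Egr2* and *Fos* lay far from the other 3, by Dixon's test at its 95% limit, which chance alone passes in about 1 of 20 groups. *Egr2* was at 6.64 CPM in Gent+Fos OE replicate 2, below the 9.80 to 10.2 CPM of the others. *Fos* was at 167 CPM in Gent+Fos OE replicate 3, above 149 to 151 CPM in the others.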

How the results depend on the processing

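Over 15 alternatives, the signs of *Mbp*, *Pmp22*, *Egr2*, *Foxd3* and *Cdh19* and of the myelin and crest medians (0.04 to 0.21 and -0.42 to -0.17) were kept. *Pmp22* passed the limits with DESeq2 (-0.54) and with no other alternative. *Sox10* reversed with the gene length correction (0.0034), the replicate block (0.034) and both (0.11), and ran from -0.32 to 0.26 as single libraries were left out. *Mal* ran from -0.033 to 0.17 and *S100b* from -0.11 to 0.32 in the same way. Genes called higher, 23 in the fit reported, numbered 273 with DESeq2, 63 without a filter, 35 with the length correction, 0 with the replicate block and 2 to 45 as single libraries were left out. Genes called lower, 48, numbered 327, 141, 95, 0 and 3 to 93, and 31 with block and length correction. Under the edgeR block fit, 1697 genes were higher and 1703 lower at an unadjusted p under 0.05. Same-numbered libraries did not deviate together (r of 0.06, -0.04 and 0.03), so the numbers give no pairing. Leaving out Gent replicates 1 or 2 for the lists was chosen after seeing the data. The lowest-counted member, *Foxd3*, rests on 86 to 190 counts a library. The cause of the reversals was not tested.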
